A study of Mus musculus with 12 samples.

Results

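Transcripts for the subunits of the oxidative phosphorylation complexes were followed in bone marrow-derived macrophages (BMDMs), grown from marrow progenitors in medium conditioned by L929 cells and profiled by RNA-seq. Genes were taken by symbol: names that begin with Nduf and a, b, c, s or v and a digit, Sdha to Sdhd, names that begin with Uqcr, Cox4 to Cox8 or Atp5, and the mt-Nd, mt-Co, mt-Cyt and mt-Atp genes of the mitochondrial genome. After 6 pseudogene names were left out, 97 of 34327 genes matched. A mean of at least 1 TPM (the transcript abundance unit of kallisto, a level corrected for transcript length and scaled to a common total in each library) over the 12 libraries kept 92 of them. Nuclear DNA encodes 79 of the 92 and mitochondrial DNA encodes the other 13. The nuclear genes were divided into 35 for complex I, 4 for complex II, 8 for complex III, 15 for complex IV and 17 for complex V, and the mitochondrial genes into 7, 0, 1, 3 and 2. The 5 matching genes under the minimum were Cox4i2, with a mean of 0.643 TPM, and Cox7b2, Cox8b, Cox8c and Ndufa4l2, which were listed at 0, and the gene just inside it was Cox6b2 with 1.07 TPM.

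Oxidative phosphorylation passes electrons from NADH and succinate along the inner mitochondrial membrane to oxygen and uses the proton gradient this builds to make ATP. Complex I (NADH dehydrogenase) and complex II (succinate dehydrogenase, which is also an enzyme of the TCA cycle) pass electrons to ubiquinone, complex III (the cytochrome bc1 complex) passes them to cytochrome c, complex IV (cytochrome c oxidase) reduces oxygen, and complex V is the ATP synthase. All but complex II mix subunits from both genomes, and macrophages given interleukin-4 (IL-4), the cytokine of alternative activation, are known for their use of oxidative metabolism and fatty acid oxidation. Some members carry the family name without being core subunits. Atp5s and Atp5sl are now named as assembly-related factors, Cox7a2l is known as a factor of respiratory supercomplexes, and Ndufa4, first purified with complex I, was counted with complex IV.

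The 6 groups of 2 libraries were all BMDMs of wild-type C57BL/6J mice, kept for 24 h on tissue culture (TC) plastic plates, in low-density gels of 2 mg/ml collagen or in high-density gels of 7 mg/ml collagen, each untreated or with 20 ng/ml IL-4. The study asked how the density of a collagen matrix changes the macrophage response to IL-4. Gels were lifted with forceps and disintegrated in the RNA reagent, so substrate and handling cannot be told apart in any comparison of gels with plates. Nothing in the labels says that the libraries of a group came from separate mice or cultures, so that each p-value measures the spread between these libraries, which may be technical, and an exact permutation test of 2 against 2 libraries cannot go below p = 0.33.

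Each library summed to between 999658 and 999723 TPM, and the number of reads behind a value is not known. All 8 macrophage markers (Adgre1, Cd68, Csf1r, Itgam, Fcgr1, Mertk, Lyz2 and Cd14) were detected, with a sum of 27988 to 28594 TPM on untreated plates, 17542 in both IL-4 plate libraries, 43337 to 46133 in untreated low-density gels, 30719 to 31917 with IL-4, 53823 to 53957 in untreated high-density gels and 35740 to 37706 with IL-4. Most of this sum was Lyz2, at 13223 to 48901 TPM. With IL-4 on plates Adgre1 and Cd68 rose, while the other markers fell. In untreated gels Cd68 and Cd14 were lower than on untreated plates, Itgam went both ways and the others were higher. The sum of 8 fibroblast markers was 0.735 to 3.01 TPM over the 12 libraries, that of 8 lymphocyte markers 1.76 to 12.3, that of 8 neutrophil markers 5.25 to 34.6 and that of 8 eosinophil and mast cell markers 0.51 to 2.31, and the number of members that reached a mean of 1 TPM was 1, 1, 3 and 0 in that order. The neutrophil sum was 5.25 to 10.6 TPM on plates and 14.6 to 34.6 in gels, and the part of these marker sums in the results was not tested. In these bulk samples, fewer cells of a type and less RNA per cell cannot be told apart.

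The sequence most often linked to respiratory genes of the nucleus is the palindromic core bound by nuclear respiratory factor 1 (NRF1). Promoter windows from 250 bases before to 50 bases after the start were present in RefSeq (GRCm38.p6) for 67 of the 79 nuclear members. The NRF1 core GCGCATGCG, searched on both strands, was found in 8 of them (11.9%). This compares with 4.49% of the 8828 tested genes with a window and 1.95% of all 27025 genes with a window. The core AAGATGGCG of YY1 was also found in 8 (11.9%, against 3.91% of tested genes and 1.64% of all genes with a window), and the ETS core CCGGAAG in 16 (23.9%, against 21.67% and 9.93%). The 8 NRF1 windows are printed because they span 4 of the 5 complexes and include genes that rose with IL-4 on every substrate, on 1 substrate only or on none. Capitals mark the run covered by the core on either strand, and each window reads 5′ to 3′ along the gene's strand.
Atp5g2, chr15:102671070-102671099 (−): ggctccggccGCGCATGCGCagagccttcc
Atp5k, chr5:108434430-108434459 (−): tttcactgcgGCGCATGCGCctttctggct
Atp5l, chr9:44920965-44920992 (−): aaccaataaCGCATGCGCatttccccca
Cox6a1, chr5:115349101-115349130 (−): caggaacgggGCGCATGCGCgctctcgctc
Ndufa11, chr17:56717692-56717721 (+): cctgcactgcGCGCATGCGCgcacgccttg
Ndufa8, chr2:36049329-36049357 (−): tcgctggagaCGCATGCGCagatggtacc
Uqcr11, chr10:80406808-80406836 (−): atcgccttcaCGCATGCGCtatacgtctg
Uqcrc1, chr9:108936668-108936697 (+): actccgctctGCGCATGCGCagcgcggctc
A match describes letters and is not a bound site. Of these 8 genes, the core lay before the start in 6, ran across it in Uqcr11, a small subunit of complex III, and lay after it in Uqcrc1, a core protein of that complex.

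The mitochondrial genes were far more abundant per length than the nuclear ones. The 79 nuclear members together made up 1.45% to 1.82% of the TPM of a library and the 13 mitochondrial members 3.30% to 5.84%. The most abundant nuclear members by complex were Ndufv3, a small flavoprotein-linked subunit of complex I, Sdhd, a membrane anchor of complex II, Uqcrh, the hinge protein of complex III, Cox4i1, the ubiquitous isoform of Cox4, and Atp5b, the catalytic beta subunit of ATP synthase. Cox4i1 ranged from 661 to 909 TPM over the 12 libraries. At the mitochondrial end, mt-Co1, the catalytic subunit of complex IV, ranged from 6892 to 10729 TPM. The exception was mt-Nd6, the sole subunit gene on the opposite strand of the mitochondrial genome, with 39.9 to 175 TPM in these poly(A)-selected libraries.

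The summed TPM of the nuclear members was 16884 and 16767 in the untreated plate libraries and 17868 and 17531 in those with IL-4, 15364 and 14483 without and 17603 and 18247 with IL-4 in low-density gels, and 14647 and 14518 without and 16621 and 16301 with IL-4 in high-density gels. On each substrate both IL-4 libraries lay above both untreated libraries. The mitochondrial sum was 52039 and 52415 on untreated plates and 52693 and 58420 with IL-4, 32978 and 40578 without and 37840 and 35866 with IL-4 in low-density gels, and 39662 and 37085 without and 40611 and 41470 with IL-4 in high-density gels. All 8 gel libraries lay below all 4 plate libraries for the mitochondrial genes, and in low-density gels the libraries with and without IL-4 overlapped. The ratio of the mitochondrial to the nuclear sum, which does not change when a library is rescaled, was 3.08 and 3.13 on untreated plates, 2.95 and 3.33 with IL-4, 2.15 and 2.80 in untreated low-density gels, 2.15 and 1.97 with IL-4, 2.71 and 2.55 in untreated high-density gels and 2.44 and 2.54 with IL-4. Every gel library was below every plate library in this ratio, and no test was made on the sums. With transcripts of nuclear copies of mitochondrial genes added to those genes, the ratio was 3.496 to 3.888 on plates and 2.396 to 3.216 in gels.

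**Figure D1:**
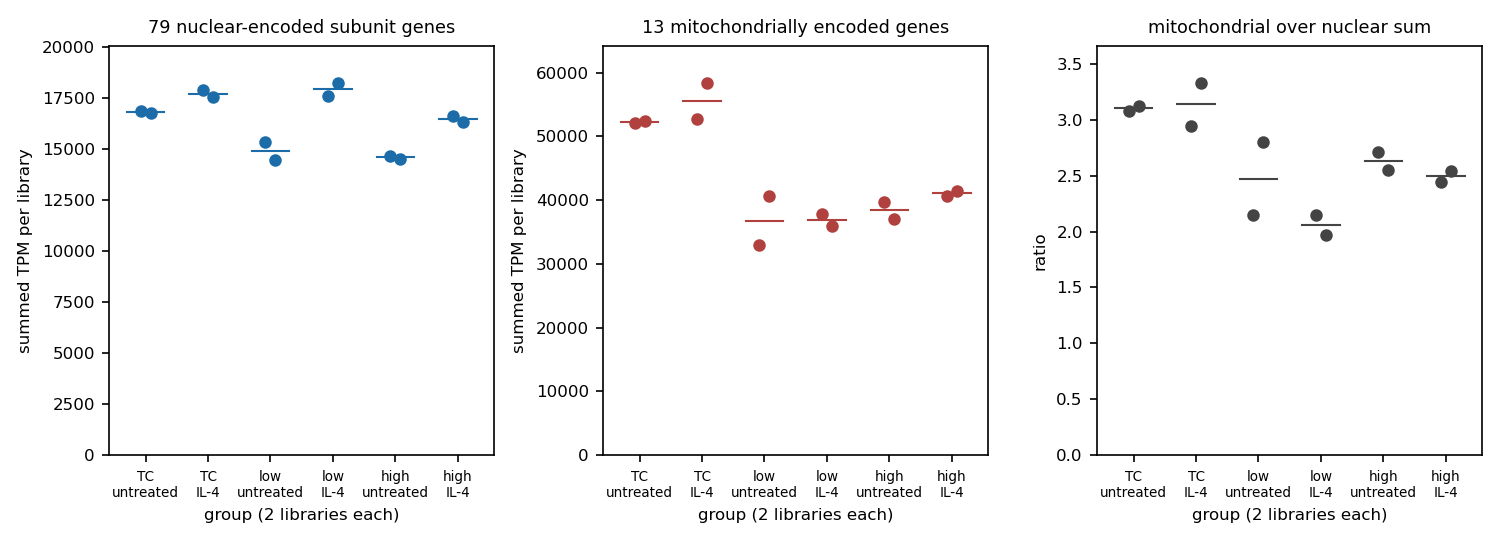
Summed TPM of the 79 nuclear members, summed TPM of the 13 mitochondrial members and the ratio of the sums, each on a linear axis from 0, with 1 point per library and a line at each group's mean. The 4 plate libraries have ratios of 2.95 to 3.33 and the 8 gel libraries of 1.97 to 2.80.

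The complexes did not keep the same shares of the nuclear sum. Complex V took 29.7% to 31.2% of it on plates and 25.2% to 27.2% in gels, complex IV 27.0% to 27.9% on plates and 28.8% to 30.4% in gels, and complex III 10.1% to 10.8% on plates and 11.4% to 12.5% in gels. Plate and gel libraries did not overlap in these 3 shares. They overlapped for complex I, with 26.9% to 27.8% on plates and 27.2% to 29.4% in gels, and for complex II, with 4.03% to 4.24% and 4.01% to 4.49%. Single abundant genes can move such a share. Without IL-4, 2 of 8 nuclear complex III members were higher in gels and 5 lower (limma, adjusted p under 0.2). In complex IV these were 5 and 9 of 15, against 29.7% and 46.7% of all genes. Uqcrh of complex III and Cox7a2l of complex IV were among the higher ones. Shares without them were not computed, so whether the higher shares rest on these genes alone was not tested. Without IL-4 the summed TPM of nuclear complex III members was 1787 and 1806 on plates and 1681 to 1814 in gels. That of complex IV was 4680 and 4670 on plates and 4224 to 4430 in gels. The complex III sums thus overlapped and the complex IV sums were lower in gels.

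**Figure D2:**
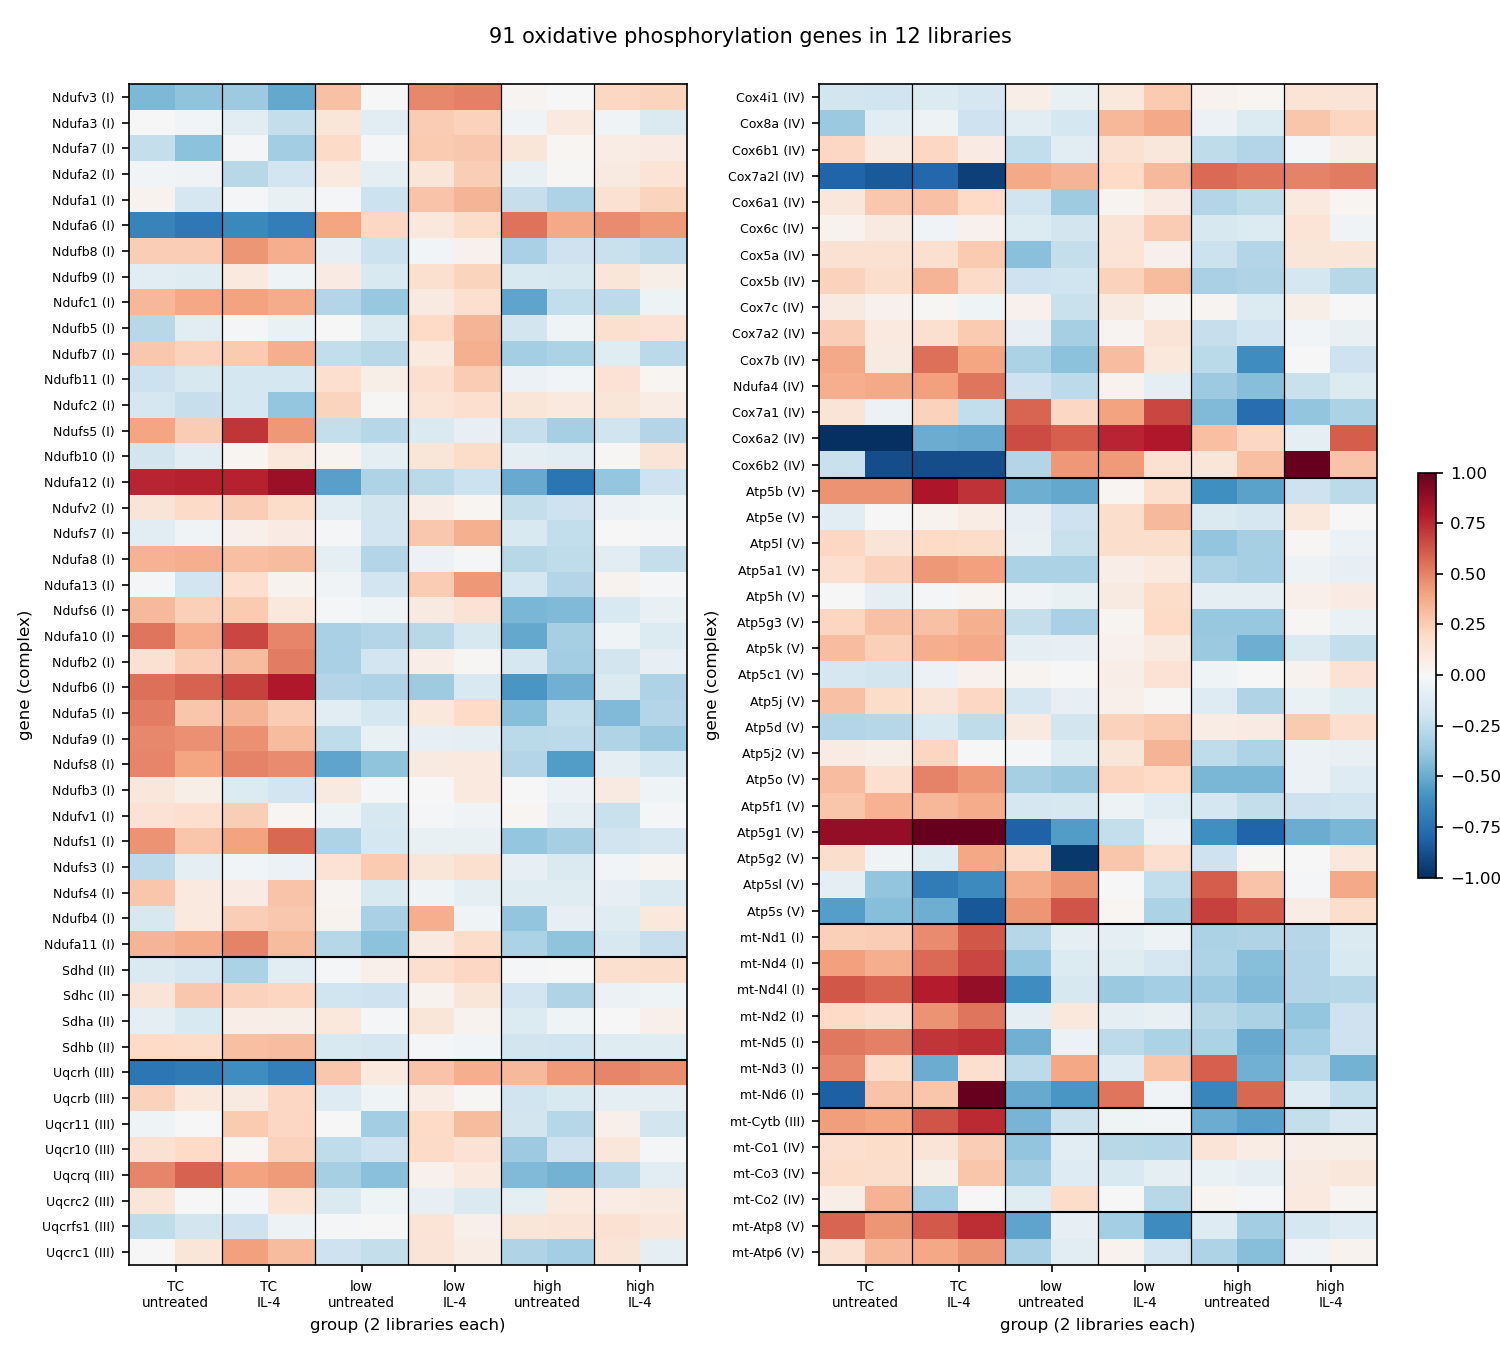
Heat map of 91 of the 92 members (rows, by complex and genome) in the 12 libraries (columns), coloured by log2(TPM + 1) minus the gene's mean over the libraries, from −1 to 1. Most mitochondrial rows are lower in the gel columns, as in their sums of 32978 to 41470 TPM in gels against 52039 to 58420 on plates. Nuclear rows go both ways.

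IL-4 was followed by higher levels of most nuclear members in collagen gels. In limma fits of log2(TPM + 1), with a gene called at an adjusted p under 0.2 over all genes tested, 53 of 79 nuclear members (67.1%) rose in low-density gels and 3 fell, where 13.2% of all 11852 genes rose and 40.4% fell. In high-density gels 36 of 79 (45.6%) rose and 1 fell, against 11.5% and 22.8% of all genes. The median log2 fold change of the nuclear members was 0.19 at low density and 0.17 at high density, beside −0.19 and −0.10 for all genes tested. Of the 13 mitochondrial members 2 rose at low density and 3 at high density, none fell, and their medians were 0.04 and 0.10. A rescaling of the libraries by median ratio turned the split of all genes from 1567 higher and 4784 lower to 2791 and 2497 at low density, and from 1366 and 2698 to 1989 and 1766 at high density. The nuclear members were then 70 higher and 2 lower at low density and 50 and 1 at high density, and the mitochondrial members 7 and 5 higher with none lower. The nuclear count at low density was 37 in place of 56 without IL-4 low-density gel replicate 2, and at high density it was 24, 21 and 20 in place of 37 without untreated replicate 1, untreated replicate 2 or IL-4 replicate 1. The mitochondrial members at low density depended on single libraries for their direction: 1 was higher and 6 lower (median −0.17) without untreated low-density gel replicate 1, and 7 higher and 0 lower (median 0.22) without replicate 2. With quantile normalization 1 was higher and 2 lower (median −0.19).

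The nuclear genes of every complex took part. At low density 21 of 35 members rose for complex I, 3 of 4 for complex II, 6 of 8 for complex III, 10 of 15 for complex IV and 13 of 17 for complex V. At high density the numbers were 15, 2, 3, 7 and 9. The genes that rose at high density were largely among those that rose at low density: 33 were shared, 62.3% of the low-density and 91.7% of the high-density list, from comparisons that share no library but were fitted together. Those that fell were Atp5s in both gels and, at low density, Atp5sl and Ndufa6.

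Genes of ATP synthase were among those with the largest changes. Atp5b (chr10:128083273-128090391, GRCm38), the catalytic beta subunit, had 375 and 368 TPM in untreated low-density gels and 534 and 588 with IL-4. Its change there was 0.59 (SE 0.064, adjusted p = 0.000454) on the log2 scale. In high-density gels it went from 344 and 363 to 455 and 439.7 TPM, a change of 0.34 (SE 0.064, adjusted p = 0.0102). Both IL-4 libraries lay above both untreated ones in each gel. Atp5o, the stalk subunit that confers oligomycin sensitivity, had 172 and 168 TPM without and 252 and 249 with IL-4 at low density, and 158 and 158 without and 208 and 199 with IL-4 at high density. These are changes of 0.56 (SE 0.056, adjusted p = 0.00031) and 0.37 (SE 0.056, adjusted p = 0.00379), again with no overlap. The gene Atp5g1 encodes the c-subunit of the membrane ring, as do Atp5g2 and Atp5g3. It rose at low density, from 74.9 and 89.4 to 111 and 126 TPM, by 0.53 (SE 0.11, adjusted p = 0.0094), while at high density its change of 0.23 (SE 0.11, adjusted p = 0.202) missed the threshold. For Atp5g2, which shares 40.2% of its 31-base words with other transcripts, the low-density libraries were far apart, at 36.1 and 15.6 TPM untreated and 38.3 and 35.5 with IL-4. Atp5g2 lost its call (adjusted p 0.32 to 0.884) without untreated low-density gel replicate 2 or IL-4 low-density gel replicates 1 or 2.

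In complex IV, Cox8a, the ubiquitous isoform of a small subunit, had 554 and 526 TPM in untreated and 749.6 and 775 in IL-4 low-density gels, and 571 and 541 without and 722 and 689 with IL-4 in high-density gels. Its changes were 0.50 (SE 0.057, adjusted p = 0.000614) and 0.34 (SE 0.057, adjusted p = 0.00578), with no overlap. Cox5a, which with Cox5b belongs to the nuclear subunits that assemble on the catalytic core, rose by 0.42 (SE 0.073, adjusted p = 0.00447) and 0.37 (SE 0.073, adjusted p = 0.0117). Cox6b1, which lies on the face towards cytochrome c, rose by 0.31 (SE 0.062, adjusted p = 0.00829) and 0.30 (SE 0.062, adjusted p = 0.0145). Cox6a1, one of the 2 Cox6a isoforms, rose by 0.33 and 0.33, with adjusted p = 0.00941 and 0.015. Cox7b rose by 0.57 (SE 0.13, adjusted p = 0.0139) at low density, and its change of 0.34 (SE 0.13, adjusted p = 0.124) at high density was called as well. At high density Cox7b lost its call (adjusted p 0.442 to 0.467) without untreated high-density gel replicate 2 or IL-4 high-density gel replicate 1. Smaller rises at low density were those of Cox4i1, 0.19, Cox7a2, 0.28, and Ndufa4, 0.20. Cox4i1 lost its call (adjusted p 0.321 to 0.378) without untreated low-density gel replicate 2 or IL-4 low-density gel replicate 2, Cox7a2 lost its call (adjusted p 0.206) without IL-4 low-density gel replicate 2, and Ndufa4 lost its call (adjusted p 0.249) without IL-4 low-density gel replicate 1.

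In complexes I to III, Ndufa1, a small membrane-arm subunit of complex I encoded on the X chromosome, had 226 and 198 TPM without and 281 and 292 with IL-4 at low density, and 196 and 186 without and 255 and 268 with IL-4 at high density. It rose by 0.43 (SE 0.077, adjusted p = 0.0049) and 0.45 (SE 0.077, adjusted p = 0.00627), with no overlap in either gel. Ndufb7 rose at low density by 0.48 (SE 0.095, adjusted p = 0.00749) and was not called at high density, where its change was 0.13. Ndufs6, a zinc-binding subunit of the peripheral arm, rose by 0.34 (SE 0.065, adjusted p = 0.0106) at high density. The rise of Ndufs6 at low density, 0.14, was less firm: Ndufs6 lost its call (adjusted p 0.313 to 0.424) without untreated low-density gel replicate 2 or IL-4 low-density gel replicate 2. In complex III, Uqcrc1 had 57.0 and 55.6 without and 72.2 and 69.3 TPM with IL-4 at low density and 53.3 and 51.8 without and 72.0 and 61.9 with IL-4 at high density. Its changes were 0.32 (SE 0.086, adjusted p = 0.0258) and 0.34 (SE 0.086, adjusted p = 0.0341). In complex II, Sdhd was called in both gels with 0.17 and 0.18. At low density Sdhd lost its call (adjusted p 0.211) without IL-4 low-density gel replicate 2, and at high density Sdhd lost its call (adjusted p 0.201 to 0.219) without untreated high-density gel replicate 1 or IL-4 high-density gel replicates 1 or 2.

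The falling genes carry the family name but are not core subunits, apart from Ndufa6. Atp5s had 16.9 and 19.4 TPM in untreated and 12.3 and 9.58 in IL-4 low-density gels, and 20.1 and 19.1 without and 12.9 and 13.9 with IL-4 in high-density gels. It fell by 0.69 (SE 0.14, adjusted p = 0.00839) and 0.52 (SE 0.14, adjusted p = 0.0403), and untreated and IL-4 libraries did not overlap. Atp5sl fell by 0.53 (SE 0.16, adjusted p = 0.0424) at low density. Atp5sl lost its call (adjusted p 0.217) without IL-4 low-density gel replicate 2. Ndufa6, an LYR-motif subunit of complex I, fell by 0.16 (SE 0.085, adjusted p = 0.194) at low density, and its change was 0.051 after median-ratio rescaling. Ndufa6 lost its call (adjusted p 0.272 to 0.627) without untreated low-density gel replicate 1 or IL-4 low-density gel replicates 1 or 2.

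**Figure D3:**
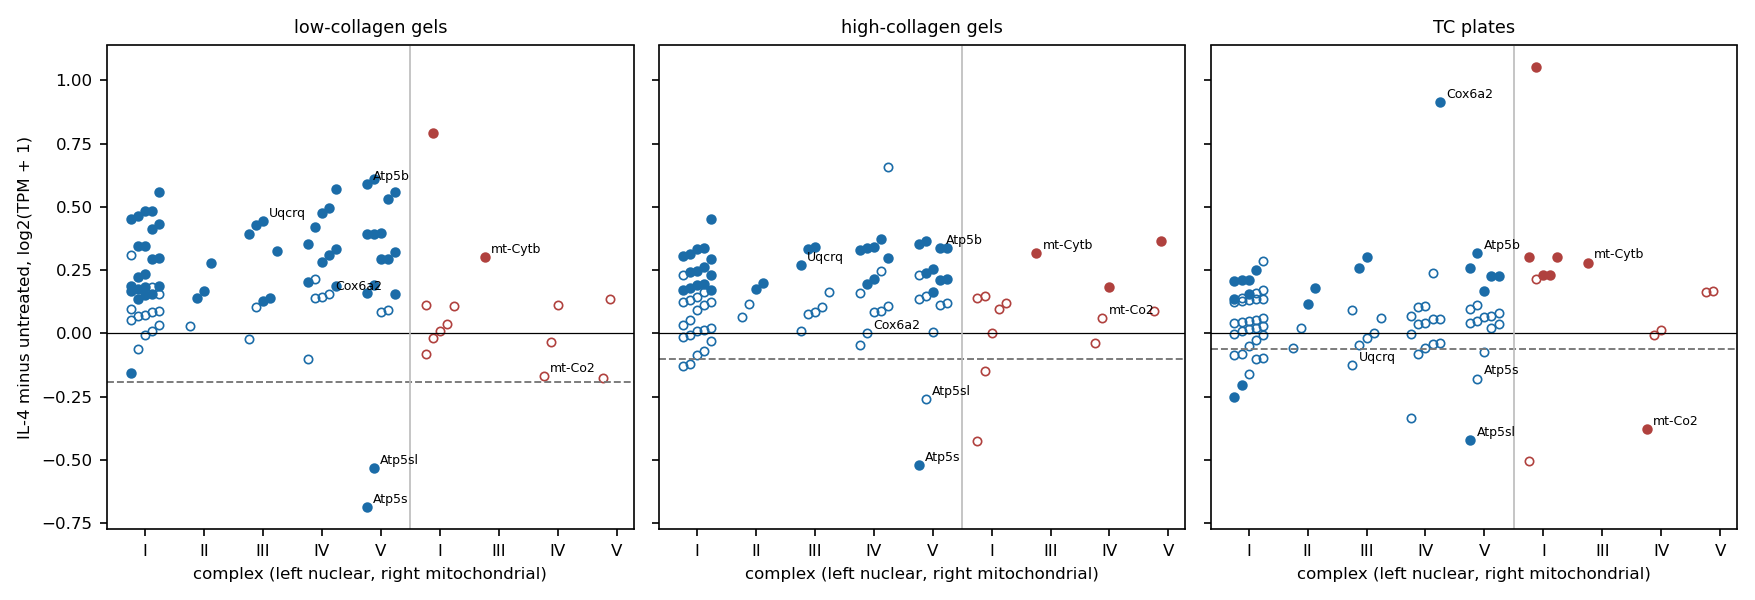
Log2 fold change with IL-4 (linear axis, log2(TPM + 1) scale) of each member in low-density gels, high-density gels and TC plates, by complex, with nuclear genes in blue on the left and mitochondrial genes in red on the right of each column. Filled points passed the adjusted p of 0.2 and the dashed line is the median of all genes tested, at −0.19, −0.10 and −0.06.

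Among the mitochondrial genes, mt-Cytb (chrM:14145-15288, GRCm38), the cytochrome b of complex III, was called in both gels. It had 1696 and 2018 TPM in untreated and 2267 and 2298 in IL-4 low-density gels, and 1654 and 1607 without and 1981 and 2083 with IL-4 in high-density gels, with no overlap. Its changes were 0.30 (SE 0.08, adjusted p = 0.0248) and 0.32 (SE 0.08, adjusted p = 0.0334). mt-Atp6, the proton channel subunit of ATP synthase, rose at high density by 0.37 (SE 0.096, adjusted p = 0.0386), but with the transcripts of its nuclear copy added the change was 0.05 (adjusted p = 0.694) and was not called. The calls of mt-Nd6 at low density and of mt-Co3 at high density did not hold when single libraries were left out, although the change of mt-Co3 stayed at 0.169 to 0.196. mt-Nd6 changed by 0.79, from 49.8 and 47.1 to 103 and 69.3 TPM, and mt-Nd6 lost its call (adjusted p 0.236 to 0.418) without untreated low-density gel replicates 1 or 2 or IL-4 low-density gel replicate 1. mt-Co3 changed by 0.18, and mt-Co3 lost its call (adjusted p 0.29 to 0.335) without untreated high-density gel replicates 1 or 2 or IL-4 high-density gel replicates 1 or 2. The other mitochondrial members had changes of −0.18 to 0.14 at low density and −0.42 to 0.15 at high density and were not called.

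Whether the response to IL-4 depended on collagen density was tested as an interaction. None of the 92 members passed (0.194% of all genes were called with a higher and 0.169% with a lower signed response at high density). An unadjusted p under 0.05 was found for 6 members and for 1171 of all genes. The 5 members of smallest p were Cox5b, Ndufa3, Atp5b, Ndufb7 and Ndufa5, whose responses at high minus low density were −0.39, −0.36, −0.25, −0.35 and −0.33 on the log2 scale. Their adjusted p was 0.28 to 0.486. The median interaction was −0.06 for the nuclear and 0.07 for the mitochondrial members, beside 0.09 for all genes. With 4 groups of 2 libraries this does not show that both gels responded alike. In the fit of all 12 libraries Cox5b was called (adjusted p = 0.196), and without untreated low-density gel replicate 1 Atp5g2 was called (−1.04, adjusted p = 0.19).

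With IL-4 on TC plates, most nuclear members were not called, and the share that rose was little above that of all genes. IL-4 raised 16 of 79 nuclear members (20.3%) and lowered 3, against 14.7% and 24.0% of all 11865 genes, and raised 6 of 13 mitochondrial members (46.2%) and lowered 1. The medians were 0.05 for the nuclear and 0.21 for the mitochondrial members, and −0.06 for all genes. After median-ratio rescaling 27 nuclear members were higher and 2 lower, 8 mitochondrial members were higher and 1 lower, and all genes went from 1745 higher and 2853 lower to 2235 and 2402. Without untreated plate replicate 1 the nuclear count was 12 in place of 19, and without IL-4 plate replicate 2 the mitochondrial count was 4 in place of 7. Of the 33 nuclear members that rose in both gels, 6 also rose on plates: Atp5a1, Atp5b and Atp5o of ATP synthase, Ndufa13 and Ndufb10 of complex I and Uqcrc1 of complex III.

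Among nuclear members averaging over 5 TPM over all libraries, Atp5b had the largest called rise on plates after Cox6a2. Atp5b had 719 and 718 TPM on untreated plates and 921 and 871 with IL-4, a rise of 0.32 (SE 0.057, adjusted p = 0.00305). Uqcrc1 rose by 0.30 (SE 0.083, adjusted p = 0.0258) and Atp5o by 0.23 (SE 0.058, adjusted p = 0.0189). Atp5g1 (0.26) was called with less margin. Atp5g1 lost its call (adjusted p 0.215 to 0.236) without untreated TC plate replicates 1 or 2 or IL-4 TC plate replicate 1. The isoform Cox6a2, known from heart and skeletal muscle, was low, at 0.82 and 1.46 TPM and then 2.99 and 2.97, and rose by 0.91 (SE 0.23, adjusted p = 0.0155). Those that fell were Ndufb3 by 0.25 (SE 0.073, adjusted p = 0.0324), Ndufa2 by 0.20 and Atp5sl by 0.42. Ndufa2 lost its call (adjusted p 0.213 to 0.285) without untreated TC plate replicate 1 or IL-4 TC plate replicate 1, and Atp5sl lost its call (adjusted p 0.27 to 0.409) without untreated TC plate replicate 1 or IL-4 TC plate replicate 1.

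Complex I supplied 5 of the 6 mitochondrial genes that rose on plates. mt-Nd1, which encodes a membrane subunit near the ubiquinone site, had 3388 and 3405 TPM untreated and 3973 and 4411 with IL-4, a change of 0.30 (SE 0.074, adjusted p = 0.0151). mt-Nd2, a proton-pumping subunit, changed by 0.30 (SE 0.075, adjusted p = 0.0154), and mt-Cytb by 0.28 (SE 0.075, adjusted p = 0.0238). In all 3 both IL-4 libraries were above both untreated ones. mt-Nd4 and mt-Nd4l, which are read from 1 shared transcript, both changed by 0.23. mt-Nd4 lost its call (adjusted p 0.265 to 0.304) without untreated TC plate replicate 2 or IL-4 TC plate replicate 2, and mt-Nd4l lost its call (adjusted p 0.262 to 0.473) without untreated TC plate replicates 1 or 2 or IL-4 TC plate replicates 1 or 2. mt-Nd6 changed by 1.05 from 39.9 and 86.6 to 86.2 and 175 TPM, overlapping libraries, and mt-Nd6 lost its call (adjusted p 0.551 to 0.579) without untreated TC plate replicate 1 or IL-4 TC plate replicate 2. The called fall of mt-Co2, −0.38, was 0.10 with the transcripts of its nuclear copies added. mt-Co2 lost its call (adjusted p 0.414 to 0.444) without untreated TC plate replicate 2 or IL-4 TC plate replicate 1.

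The higher collagen density went with lower nuclear members in the presence of IL-4. Between high- and low-density gels with IL-4, 24 of 79 nuclear members (30.4%) were lower at high density and 2 were higher, while 6.99% of all genes were lower and 14.1% higher. The nuclear median was −0.13 and that of all genes 0.06. The comparison shares its libraries with the IL-4 comparisons in gels. After median-ratio rescaling 37 were lower and 0 higher, and all genes went from 1672 higher and 828 lower to 1218 and 1350. The mitochondrial genes were 2 higher and 1 lower, with a median of 0.02. With the transcripts of its nuclear copy added, mt-Nd3 was called lower as well, −0.375 (adjusted p = 0.0488). The nuclear count was sensitive to each library: it was 16 and 6 in place of 26 without IL-4 low-density gel replicate 1 or 2, and 10 and 7 without IL-4 high-density gel replicate 1 or 2. The mitochondrial count was 1 in place of 3 without IL-4 low-density gel replicate 1 and 0 without any of the other 3. By complex, 12 of 35 were lower in complex I, 0 of 4 in complex II, 2 of 8 in complex III, 2 of 15 in complex IV and 8 of 17 in complex V.

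Without IL-4 the same comparison called few members. At high density 5 nuclear members were lower and 1 higher, against 4.79% and 3.23% of all genes, and 1 mitochondrial member was called each way. With the transcripts of its nuclear copy added, mt-Nd3 was also called lower, −0.565 (adjusted p = 0.0478). The medians were −0.06 (nuclear), −0.03 (mitochondrial) and −0.02 (all genes). Rescaled, the nuclear members were 4 lower and 0 higher, and all genes went from 383 higher and 568 lower to 455 and 427. The nuclear count was 3 in place of 6 without untreated high-density gel replicate 1 and 1 without replicate 2, and the mitochondrial count ran from 0 without untreated high-density gel replicate 2 to 5 without untreated low-density gel replicate 1, and was 1 without untreated high-density gel replicate 1. The gels with and without IL-4 share no library, and the difference between both collagen comparisons is the interaction above, for which no member was called.

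Cox7a1 (chr7:30184144-30186078, GRCm38), the heart and muscle isoform of a small complex IV subunit, had the largest fall with density among the members over 5 TPM. It had 26.8 and 20.5 TPM in untreated low-density and 12.7 and 9.93 in untreated high-density gels, and with IL-4 23.5 and 28.6 in low-density and 13.1 and 13.9 in high-density gels. It fell by 0.89 (SE 0.17, adjusted p = 0.0317) with IL-4 and by 1.00 (SE 0.17, adjusted p = 0.0611) without, and low- and high-density libraries did not overlap. For the fall without IL-4, Cox7a1 lost its call (adjusted p 0.226) without untreated high-density gel replicate 2. Cox5b (chr1:36691449-36693681, GRCm38) had 383 and 407 TPM in low-density and 289 and 269 in high-density gels with IL-4 and fell by 0.50 (SE 0.061, adjusted p = 0.00986). Without IL-4 it had 283 and 285 at low and 261 and 264 at high density, a change of −0.11 that was not called. Ndufa5, a subunit of the peripheral arm of complex I, fell by 0.52 (SE 0.09, adjusted p = 0.0245) with IL-4, Atp5b by 0.32 (SE 0.064, adjusted p = 0.0346) and Atp5o by 0.30 (SE 0.056, adjusted p = 0.0311). In untreated gels, Ndufs6 fell by 0.43 (SE 0.065, adjusted p = 0.0497).

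Other named calls in the collagen comparison were lost when single libraries were left out. The differences themselves could change little, as for Ndufv3 with IL-4, which stayed at −0.288 to −0.265. With IL-4, the log2 difference at high density was −0.42 for Ndufb7, −0.33 for Ndufa3, −0.33 for Atp5g1, −0.28 for Ndufv3 and −0.23 for Ndufs6. Ndufb7 lost its call (adjusted p 0.222 to 0.241) without IL-4 low-density gel replicate 2 or IL-4 high-density gel replicate 2, Ndufa3 lost its call (adjusted p 0.223 to 0.314) without IL-4 low-density gel replicates 1 or 2 or IL-4 high-density gel replicate 2, and Atp5g1 lost its call (adjusted p 0.317 to 0.458) without IL-4 low-density gel replicate 2 or IL-4 high-density gel replicates 1 or 2. Ndufv3 lost its call (adjusted p 0.266 to 0.359) without IL-4 low-density gel replicates 1 or 2 or IL-4 high-density gel replicates 1 or 2, and Ndufs6 lost its call (adjusted p 0.213 to 0.332) without IL-4 low-density gel replicate 2 or IL-4 high-density gel replicates 1 or 2. The higher calls were Ndufa6 (0.31) and Cox7a2l (0.25 with and 0.19 without IL-4). Ndufa6 lost its call (adjusted p 0.223 to 0.256) without IL-4 low-density gel replicates 1 or 2 or IL-4 high-density gel replicates 1 or 2. With IL-4, Cox7a2l lost its call (adjusted p 0.207 to 0.241) without IL-4 low-density gel replicate 1 or IL-4 high-density gel replicate 2, and without it Cox7a2l lost its call (adjusted p 0.254 to 0.414) without untreated low-density gel replicates 1 or 2 or untreated high-density gel replicates 1 or 2. Of the mitochondrial genes, mt-Co1 was higher at high density (0.34 with and 0.35 without IL-4) and mt-Nd2 lower (−0.22 and −0.30). With IL-4, mt-Co1 lost its call (adjusted p 0.21 to 0.247) without IL-4 low-density gel replicate 2 or IL-4 high-density gel replicates 1 or 2, and mt-Nd2 lost its call (adjusted p 0.213 to 0.504) without IL-4 low-density gel replicates 1 or 2 or IL-4 high-density gel replicates 1 or 2. Without it, mt-Co1 lost its call (adjusted p 0.288 to 0.338) without untreated high-density gel replicates 1 or 2, and mt-Nd2 lost its call (adjusted p 0.329 to 0.398) without untreated low-density gel replicate 2 or untreated high-density gel replicates 1 or 2. The rise of mt-Co3 with IL-4, 0.23, was of the same kind: mt-Co3 lost its call (adjusted p 0.271 to 0.363) without IL-4 low-density gel replicates 1 or 2 or IL-4 high-density gel replicates 1 or 2.

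**Figure D4:**
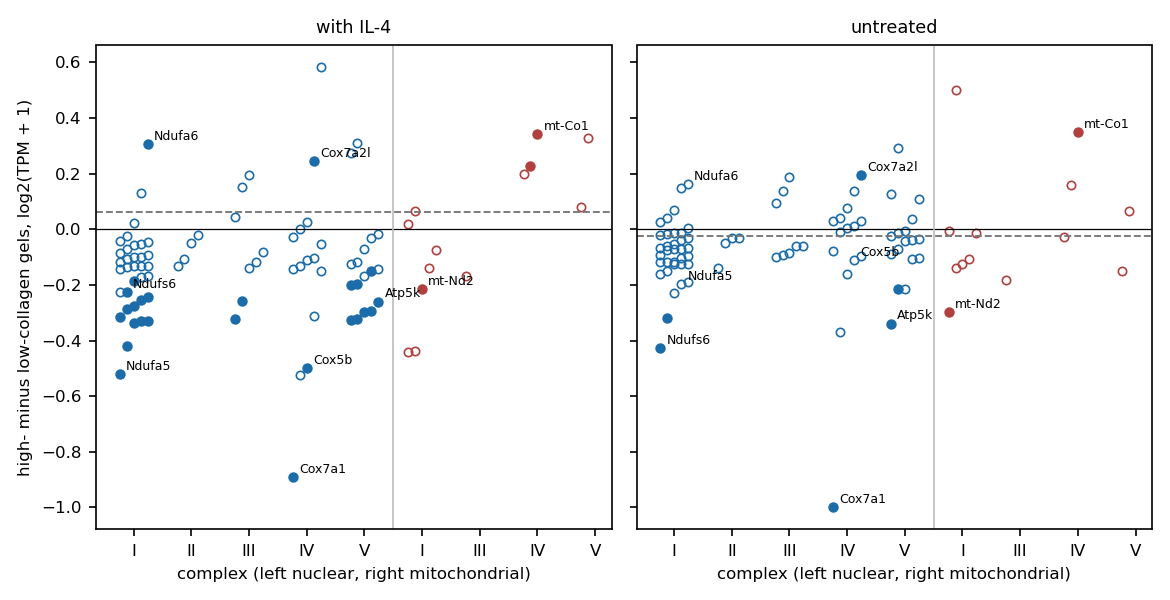
Log2 fold change of each member between high- and low-density gels (linear axis, log2(TPM + 1) scale), with IL-4 and untreated, by complex, with nuclear genes in blue and mitochondrial genes in red. Filled points passed the adjusted p of 0.2 (24 nuclear members lower and 2 higher with IL-4, 5 lower and 1 higher untreated) and the dashed line is the median of all genes tested, 0.06 and −0.02.

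The differences between gels and TC plates were larger than those with IL-4 or density for many members. Without IL-4, 45 of 79 nuclear members (57.0%) were lower in gels and 20 higher, against 46.7% and 29.7% of all 11865 genes, and 10 of 13 mitochondrial members (76.9%) were lower and 0 higher. With IL-4, 38 nuclear members (48.1%) were lower and 27 higher, against 51.8% and 25.7% of all genes, and 11 mitochondrial members (84.6%) were lower and 0 higher. The shares of nuclear genes were thus near those of all genes in both directions. Medians without IL-4 were −0.28 (nuclear), −0.49 (mitochondrial) and −0.15 (all genes), and with IL-4 −0.10, −0.69 and −0.24. Median-ratio rescaling changed the nuclear split to 26 higher and 38 lower without IL-4 and to 41 higher and 20 lower with IL-4, where the nuclear median became 0.18. The mitochondrial genes were then 0 higher and 9 lower without IL-4, and 1 higher and 8 lower with IL-4, with medians of −0.31 and −0.41, and all genes went from 3524 higher and 5537 lower to 4584 and 4455 without IL-4 and from 3054 and 6143 to 4567 and 4428 with it. The direction of the nuclear members as a group with IL-4 thus depended on the scaling, and that of the mitochondrial members was lower in gels under both scalings. The lower group held 38 genes in both comparisons, and the higher group 18.

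**Figure D5:**
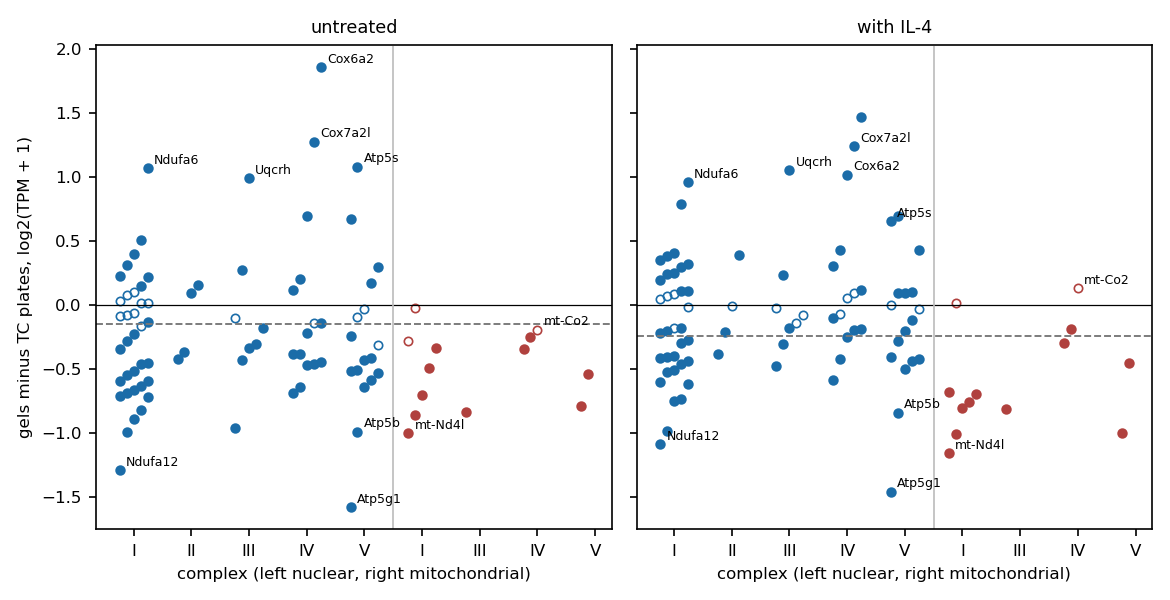
Log2 fold change of each member between collagen gels and TC plates (linear axis, log2(TPM + 1) scale), untreated and with IL-4, by complex, with nuclear genes in blue and mitochondrial genes in red. Filled points passed the adjusted p of 0.2, the dashed line is the median of all genes tested (−0.15 and −0.24), and no mitochondrial gene was called higher in gels.

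Members of the same complex moved in opposite directions between gels and plates. Atp5g1 (chr11:96068852-96075670, GRCm38) had 243 and 244 TPM on untreated plates, 74.9 and 89.4 in low-density and 85.7 and 75.4 in high-density gels, and with IL-4 295 and 289 on plates, 111 and 126 in low-density and 93.1 and 95.9 in high-density gels. Gels minus plates, its log2 difference was −1.57 (SE 0.082, adjusted p = 1.79e-07) untreated and −1.45 (SE 0.082, adjusted p = 3.76e-07) with IL-4, with no overlap. Atp5b was lower, with log2 differences of −0.99 (SE 0.05, adjusted p = 1.46e-07) and −0.84 (SE 0.05, adjusted p = 5.04e-07). In complex V the family members Atp5s and Atp5sl were higher, by 1.08 and 0.67 untreated and 0.66 and 0.70 with IL-4.

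In complex I, Ndufa12, of the peripheral arm, had 177 and 177 TPM on untreated plates, 70.7 and 83.3 in low-density and 72.8 and 62.1 in high-density gels. It was lower, with log2 differences of −1.29 (SE 0.087, adjusted p = 8.92e-07) untreated and −1.08 (SE 0.087, adjusted p = 3.19e-06) with IL-4. More than 20% of its 31-base words occur in other transcripts, so its level is uncertain. Ndufb6, a membrane-arm subunit, was lower, with log2 differences of −0.99 (SE 0.075, adjusted p = 1.88e-06) and −0.98 (SE 0.075, adjusted p = 2.26e-06). In the opposite direction, Ndufa6 had 138 and 134 TPM on untreated plates and 289 and 253 in low-density and 321 and 286 in high-density gels. It was higher by 1.07 (SE 0.066, adjusted p = 4.95e-07) and 0.96 (SE 0.066, adjusted p = 1.21e-06). Ndufv3 was higher by 0.51 and 0.79.

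In complex III, Uqcrh had 296 and 299.5 TPM on untreated plates against 590.1 and 522 in low-density and 610.0 and 657 in high-density gels. It was higher by 0.99 (SE 0.057, adjusted p = 3.21e-07) untreated and 1.05 (SE 0.057, adjusted p = 2.8e-07) with IL-4, while Uqcrc1 was lower, at −0.33 and −0.30. Cox7a2l (chr17:83501918-83517330, GRCm38), of the supercomplexes, had 222 and 217 TPM on untreated plates, 505 and 491 in low-density gels and 577 and 563 in high-density gels, and with IL-4 225 and 203 on plates, 445 and 486 in low-density and 548 and 555 in high-density gels. It was higher by 1.28 (SE 0.053, adjusted p = 4.53e-08) and 1.24 (SE 0.053, adjusted p = 7.3e-08), with all gel libraries above all plate libraries. In complex IV, Cox7b and Ndufa4 were lower, at −0.64 and −0.68 untreated and −0.42 and −0.58 with IL-4, and Cox4i1 was higher by 0.20 and 0.31. Calls near 0 here went with the scaling: with IL-4, the falls of Cox5b (−0.24) and Cox6a1 (−0.19) became 0.038 and 0.094 after median-ratio rescaling.

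The mitochondrial genes fell by unequal amounts between plates and gels. mt-Nd4l, of complex I, had with IL-4 2511 and 2686 TPM on plates against 1128 and 1152 in low-density and 1192 and 1196 in high-density gels, a log2 difference of −1.15 (SE 0.1, adjusted p = 5.57e-06), and was called lower in untreated gels as well. mt-Nd5, also of complex I, was lower, with log2 differences of −0.85 (SE 0.1, adjusted p = 4.56e-05) untreated and −1.01 with IL-4. mt-Cytb had 3129 and 3071 TPM on untreated plates and 1696 and 2018 in low-density and 1654 and 1607 in high-density gels. It was lower, with log2 differences of −0.83 (SE 0.065, adjusted p = 2.34e-06) untreated and −0.81 (SE 0.065, adjusted p = 3.32e-06) with IL-4. mt-Atp8, the small subunit that shares a transcript with mt-Atp6, was lower, at −0.79 and −0.99, mt-Atp6 at −0.54 and −0.45, mt-Nd4 at −0.70 and −0.80, mt-Nd1 at −0.49 and −0.69 and mt-Nd2 at −0.33 and −0.68. Of the complex IV genes, mt-Co1 was lower, at −0.25 and −0.30 (less with its copies added), and mt-Co3 at −0.34 and −0.18. With IL-4, mt-Co3 lost its call (adjusted p 0.411) without IL-4 TC plate replicate 2, and its change was 0.10 after median-ratio rescaling. mt-Co2 and mt-Nd3 were not called in either comparison and mt-Nd6 only with IL-4 (−0.75), where mt-Nd6 lost its call (adjusted p 0.205 to 0.686) without IL-4 TC plate replicate 2, IL-4 low-density gel replicate 2 or IL-4 high-density gel replicate 2.

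Reads of some mitochondrial genes cannot be assigned with certainty, because the annotation holds transcripts of nuclear copies of them. Whether these copies were transcribed here was not tested. Of the 31-base words of mt-Co2, 100% occur in other transcripts of the annotation, and for mt-Co3, mt-Atp6, mt-Nd4l and mt-Nd3 the share was 99.9%, 99.5%, 98.9% and 98.1%. The copy of mt-Nd3, Gm28438, was at 3.58 and 439 TPM in the untreated high-density gels, while mt-Nd3 itself was at 1086 and 513, so that the copy was nearly unread in the library with the higher mt-Nd3. The copy of part of mt-Co1, Gm29216, was at 2979 to 3243 TPM on plates and 5662 to 6365 in gels, the opposite direction to mt-Co1. When the copies were added to their genes, weighted by length, Gm28438 made up 0.3% to 77.1% of the combined mt-Nd3 level, and mt-Nd3 was then lower in gels with IL-4, −0.73 (adjusted p = 8.77e-06), as was mt-Co2, −0.24 (adjusted p = 0.00277). The differences of mt-Co1 between gels and plates became smaller, −0.094 (adjusted p = 0.187) untreated and −0.13 (adjusted p = 0.0726) with IL-4. With these additions 12 of 13 mitochondrial genes were lower in untreated gels than on plates and 13 of 13 with IL-4, and 7 of 13 rose and 0 fell with IL-4 on plates. With IL-4, 3 were higher and 0 lower in each gel. At high density mt-Cytb and mt-Co3 stayed called, mt-Atp6 was no longer called and mt-Nd3, with 0.27 (adjusted p = 0.071), was. Between the gels, mt-Nd3 was called lower at high density with and without IL-4, and the calls of mt-Co1, mt-Co3 and mt-Nd2 were kept. The combined sum was 58623 to 68170 TPM on plates and 39022 to 48923 in gels. Of the nuclear members, 7 share more than 20% of their words with other transcripts.

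Isoforms known from other tissues were low or absent. Cox4i1, Cox6a1, Cox6b1, Cox7a2 and Cox8a, the ubiquitous isoforms, were at 203 TPM or more in every library, while Cox4i2, Cox8b and Ndufa4l2 did not reach the minimum. Cox6a2 was at 0.82 and 1.46 TPM on untreated plates and at 7.87 and 7.53 in untreated low-density and 5.95 and 5.51 in untreated high-density gels. It was higher in gels by 1.85 (SE 0.2, adjusted p = 1.87e-05) untreated and 1.02 (SE 0.2, adjusted p = 0.00109) with IL-4. Cox6b2, known from testis, was listed at 0 in 3 of the 4 plate libraries and had 4.09 and 1.25 TPM in high-density gels with IL-4, so that its values are given without a fold change. Cox7a1, described above for its fall with density, had 19.3 and 16.8 TPM on untreated plates, and its difference between gels and plates was not called (−0.14 untreated and 0.10 with IL-4).

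Other mitochondrial gene lists were set beside the members. With IL-4 in low-density gels, 5 of 45 assembly factors rose and 8 fell, 8 of 49 large and 5 of 31 small subunits of the mitochondrial ribosome rose and 8 and 2 fell, 4 of 18 TCA cycle genes rose and 3 fell, 2 of 16 fatty acid oxidation genes rose and 5 fell, and 1 of 32 genes of mitochondrial DNA expression rose and 10 fell. Of 15 electron carriers 4 rose and 1 fell, and of 10 regulators of biogenesis 3 rose and 1 fell. The share that rose was 3.1% to 30.0% over these 8 lists, beside 67.1% of the nuclear members and 13.2% of all genes. The share that fell was 6.5% to 31.2%, beside 40.4% of all genes. On plates with IL-4, 9 of 18 TCA cycle genes and 7 of 16 fatty acid oxidation genes rose and 1 and 0 fell. Of all genes, 14.7% rose there and 24.0% fell. Between untreated gels and plates, 15 of 18 TCA cycle genes, 35 of 49 large and 22 of 31 small ribosomal subunits, 24 of 45 assembly factors and 22 of 32 genes of mitochondrial DNA expression were lower in gels, and 9 of 16 fatty acid oxidation genes were higher, beside the 46.7% of all genes that were lower and the 29.7% that were higher. With IL-4, 7 of the 16 fatty acid oxidation genes were higher and 7 lower, beside 25.7% and 51.8% of all genes.

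Of the electron carriers, Cyc1, the cytochrome c1 of complex III, which the symbol rule does not take in, had 58.5 and 55.5 TPM in untreated and 79.2 and 78.1 in IL-4 low-density gels and rose by 0.46 (SE 0.066, adjusted p = 0.00176) at low and 0.25 (SE 0.066, adjusted p = 0.0417) at high density. Cyc1 was lower in gels than on plates, at −0.94 untreated and −0.70 with IL-4. Cycs, cytochrome c itself, had 28.5 and 20.4 TPM on untreated plates, 5.17 and 5.34 in untreated low-density gels and 10.00 and 8.79 with IL-4. It rose with IL-4 by 0.73 (SE 0.15, adjusted p = 0.0104) and 0.41 (SE 0.15, adjusted p = 0.12) in low- and high-density gels and was lower in gels than on plates, at −1.98 untreated and −1.45 with IL-4. Among the regulators, Ppargc1b, a coactivator known for mitochondrial biogenesis and alternative activation, went from 0.333 and 0.681 to 4.39 and 3.79 TPM in low-density gels, from 0.456 and 0.722 to 3.49 and 3.12 in high-density gels and from 1.12 and 1.30 to 3.02 and 2.52 on plates. It rose by 1.76 (SE 0.23, adjusted p = 0.00103), 1.44 (SE 0.23, adjusted p = 0.00451) and 0.77 (SE 0.2, adjusted p = 0.0234). Its relative Ppargc1a reached at most 0.137 TPM in any library. Tfam, which packages mitochondrial DNA and starts its transcription, fell with IL-4 by 0.22 (SE 0.12, adjusted p = 0.188) and 0.28 (SE 0.12, adjusted p = 0.144) in low- and high-density gels. The medians of all genes there were −0.19 and −0.10. Tfam was also lower in gels than on plates, at −0.23 (adjusted p = 0.046) untreated and −0.655 (adjusted p = 0.000124) with IL-4. So was Polrmt, the mitochondrial RNA polymerase, at −0.60 untreated and −0.67 with IL-4. Esrra, a nuclear receptor that acts with both coactivators, was called on plates, where it fell by 0.23 (SE 0.11, adjusted p = 0.163) with IL-4, and was not called in either gel. Nrf1 itself was not called in any comparison.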

How the data were processed

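Gene-level TPM values of the 12 libraries were used as deposited. Per the labels and the study's methods, the authors sequenced poly(A)-selected stranded libraries as paired 38-base reads and quantified them with kallisto 0.46.1 against mouse cDNA. How transcripts were joined to genes is not given in the sources used here. TPM keeps no read depth, so no counting error was computed. The 129 lines that repeat a symbol with all its values were dropped, which left 34327 genes, and every column was mapped to a sample (0 unmapped).

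Members were taken by symbol and a mean TPM of at least 1. They and the gene lists were chosen with earlier results of these data known. Tests used limma 3.58.1 in R 4.3.3 on log2(TPM + 1), with 1 mean per group, moderated variances with a mean trend and Benjamini-Hochberg adjustment over all genes averaging 1 TPM or more. The 8 gel libraries were fitted alone for comparisons within gels (11852 genes) and all 12 otherwise (11865 genes). Genes were called at an adjusted p under 0.2, the threshold of the study. Fold changes of low genes are understated on this scale. Each SE is that of the fitted difference.

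Named genes were all mitochondrial members, the most abundant nuclear member of each complex, the 3 highest and 3 lowest nuclear fold changes of 6 comparisons among genes averaging 5 TPM or more, the 5 members of smallest interaction p, tissue isoform pairs, and called genes among 8 regulators and carriers, of which 1 gene is not reported here. The genes shared across all substrates were named after their values were seen. The difference in the IL-4 response between gels and plates, and the addition of transcripts that share 31-base words, were chosen after seeing the data. Copies were found in GENCODE transcripts of GRCm38. Alternatives were the pseudocount (0.1), the filter, median-ratio and quantile scaling, removal of mitochondrial genes from the total, a length and GC correction, no variance trend, an adjusted p under 0.05, a replicate block and leaving out each library. Whether same-numbered replicates pair was checked by the correlation of their deviations from group means, which was −0.123 to 0.109 over 15 pairs of groups, over 0.1 in 1. The scripts were tested on simulated data.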

Additional observations from a re-analysis of the deposited data

Results flagged for a closer look

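The response to IL-4 differed between collagen gels and TC plates for 28 members, by a test of the difference itself (limma, adjusted p under 0.2), where 10.8% of all genes had a larger and 16.4% a smaller response in gels. In 24 of 79 nuclear members the log2 response was larger in gels, and in 2 nuclear and 2 mitochondrial members it was smaller. Larger and smaller refer here to the signed log2 response, not to its size. Ndufa2 and Ndufb3, for example, count as larger in gels because they fell on plates. In complex I it was larger by 0.42 for Ndufa1, 0.39 for Ndufs8, 0.37 for Ndufa2, 0.34 for Ndufs6, 0.32 for Ndufc1, 0.28 for Ndufv3 and Ndufb3, 0.27 for Ndufa11 and 0.25 for Ndufb7. In complex II it was larger by 0.23 for Sdhd and 0.22 for Sdhc, and in complex III by 0.48 for Uqcrq and 0.41 for Uqcr10. In complex IV the difference was 0.34 for Cox5a, 0.33 for Cox6c, 0.31 for Cox8a and Cox6b1, 0.28 for Cox6a1 and 0.21 for Cox5b. In complex V it was 0.31 for Atp5l, 0.30 for Atp5g3, 0.24 for Atp5o, 0.21 for Atp5j and 0.19 for Atp5e. The signed response was lower in gels for Cox6a2 (−0.84), Atp5s (−0.42), mt-Nd2 (−0.35) and mt-Nd1 (−0.20). Of these, Atp5s fell with IL-4 in both gels and was not called on plates. Substrate and the handling of gels cannot be told apart here. The nuclear count was 14 in place of 26 without untreated TC plate replicate 1, and 17 without untreated TC plate replicate 2 or IL-4 TC plate replicate 2. After median-ratio rescaling 38 nuclear members had a larger and 1 a smaller response in gels, and all genes went from 1278 larger and 1940 smaller to 1816 and 1205. Leaving out 1 of the 12 libraries at a time, Atp5s lost its call in 9 of 12 cases (adjusted p 0.21 to 0.486), mt-Nd1 in 9 (0.231 to 0.517), Ndufb7 in 9 (0.212 to 0.38), Ndufv3 in 3 (0.23 to 0.373) and Sdhd in 3 (0.225 to 0.334). Without untreated TC plate replicate 1, Cox6a2 lost its call (adjusted p 0.282). Atp5o, Cox5b, Cox6a1, Cox8a and Ndufb3 each lost theirs in 2 of 12 cases (0.206 to 0.356), in each of them without IL-4 TC plate replicate 2 and without 1 of the untreated TC plates. Cox5a, Cox6b1, Ndufa1, Ndufa2, Ndufs6 and mt-Nd2 lost none. For the other members given here, calls without single libraries were followed only in the counts.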

How the results depend on the processing

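The number of reads behind each TPM value and the reads behind any 0 are not known, so detection limits cannot be given, and 2 libraries per group leave counts near the threshold loose. Of 312 alternatives for the counts of called members, 250 stayed within 1.5 times the reported count. Of 6900 for the 47 named genes, 26 changed direction with a call before or after the change. A further 6434 kept their side of the threshold, and changes of sign between 2 uncalled results are counted among these. Of the called single results, 108 of 180 kept their call throughout. The cause was not tested unless the setting itself gives it. Nuclear counts at an adjusted p under 0.05 were 5 (density with IL-4), 1 (density without), 36, 17 and 6 (IL-4 in low-density gels, high-density gels and plates) and 10 (IL-4 response, gels minus plates), and mitochondrial counts 0, 0, 1, 3 (plates) and 1. Without a filter the mitochondrial counts were 0, 0, 1, 4 (plates) and 1 in the same order, and without a variance trend 1, 0 and 1 for density with IL-4, without, and the response difference. For that difference they were 1 with a pseudocount of 0.1 and 1 without mitochondrial genes in the total. Quantile normalization gave 1 mitochondrial gene for density without IL-4 and 1 for IL-4 at high density. Median-ratio rescaling gave 7 and 5 mitochondrial genes for IL-4 at low and high density and 29 nuclear genes for IL-4 on plates. The length and GC correction gave 8, and the fit of all 12 libraries 1, mitochondrial genes for IL-4 at low density, and the latter 1 nuclear gene for the interaction. Leaving out 1 library gave nuclear counts of 6 to 16 (density with IL-4), 1 to 7 (without), 37 to 56, 20 to 26 and 12 to 17 (IL-4 in low-density gels, high-density gels and plates), 62 to 68 and 60 to 67 (gels against plates without and with IL-4), 14 to 32 (response difference) and 0 to 1 (interaction). The mitochondrial counts were 0 to 1, 0 to 5, 2 to 7, 2 to 3, 4 to 5, 10 to 11, 10 to 11, 1 to 5 and 0 to 0 in that order.

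Single genes changed direction, with a call before or after the change, as follows. With IL-4 at low density Ndufa6 was 0.051 after median-ratio rescaling, and mt-Co1 was 0.18 and mt-Nd5 0.23 with the length and GC correction. Leaving out 1 library there took mt-Co1 from −0.17 to 0.11 and mt-Nd4l from −0.20 to 0.27. With shared transcripts added mt-Nd3 was 0.27 with IL-4 at high density and 0.28 on plates, where mt-Co2 was 0.10, and −0.73 between gels and plates with IL-4, where mt-Co2 was −0.24. Quantile normalization gave −0.29 for mt-Co1 with IL-4 on plates, 0.017 for Ndufa1 and 0.12 for Ndufb3 between untreated gels and plates, and 0.056 for Ndufs6 with IL-4. Between untreated gels and plates Ndufa1 was 0.054 after median-ratio rescaling and Cox8a was −0.081 with the length and GC correction and −0.012 to 0.25 without 1 library. With IL-4, median-ratio rescaling gave 0.18 for Cox5a, 0.038 for Cox5b, 0.094 for Cox6a1, 0.21 for Cox6b1, 0.085 for Cox7a2, 0.10 for Ndufs6 and 0.10 for mt-Co3.

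The replicate numbers do not pair the samples. A replicate block gave 2 nuclear members higher and 22 lower for density with IL-4, 0 and 4 without, 53 and 3, 33 and 1, and 17 and 3 for IL-4 in low-density gels, high-density gels and plates, 19 and 45, and 26 and 39 for gels against plates without and with IL-4, and 0 for the interaction. All of these were within 1.5 times the counts without the block.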
